A study of Mesocricetus auratus with 6 samples.

Results

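The libraries compared here are the liver and brain libraries of a Syrian hamster study taken at a single circadian time, CT15. All 6 libraries of the series belong to the comparison: 2 from liver against 4 from brain, the latter being 2 of cortex and 2 of suprachiasmatic nucleus (SCN). For each tissue, 1 library came from wild-type hamsters and 1 from *duper* hamsters, which carry a frameshift that removes the function of *Cry1*, a repressor of the circadian clock. The question is which genes and functions separate the liver from both brain tissues in both genotypes.

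Each library stands for 4 hamsters, and the 3 tissues of a genotype are described as taken from the same 4. For cortex and SCN the RNA of all 4 animals went into 1 library, and for liver the reads of 4 single-animal libraries were joined, so no library carries the spread between animals. All 4 *duper* hamsters were female, and the wild-type group had 2 males and 2 females, so genotype and sex cannot be fully told apart. Wild-type hamsters were of the Lakeview (LVG) ecotype and *duper* hamsters of a line crossed to it. All were reared under long days, and their age was not given in the sources used here. Summed over genes, the estimated counts came to 69839157 in wild-type liver and 85748488 in *duper* liver. Wild-type cortex, *duper* cortex, wild-type SCN and *duper* SCN held 6788827, 10391793, 29936106 and 7248733. In the sentences that follow, liver values are given as wild type then *duper*, and brain values in that order of the 4 libraries. Levels are in TPM, a measure of transcripts scaled for length and for the total of each library. *Cry1* itself was at 16.8 and 5.44 TPM in liver and 33.3, 8.56, 22.9 and 8.14 TPM in brain, lower in each *duper* library than in the wild-type library of the same tissue.

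The liver is built mainly of hepatocytes, which make most plasma proteins, break down amino acids and dispose of their nitrogen as urea, oxidise fatty acids and make bile acids. A small set of transcription factors, among them HNF4A, the FOXA proteins and nuclear receptors for bile acids and lipids, keeps that programme active. Brain tissue holds neurons, which signal through synaptic vesicles, ligand-gated receptors and voltage-gated channels, and glia: astrocytes that clear transmitter, oligodendrocytes that make myelin, and microglia. Both tissues hold blood vessels and resident macrophages. Many enzymes of central metabolism exist as related genes, one used in hepatocytes and another in neurons or astrocytes.

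Across 19780 genes tested, 5077 were higher in liver (25.7%) and 5272 higher in brain (26.7%), and 47.7% were not called. A gene was called when edgeR's quasi-likelihood test with genotype in the model gave an adjusted p (Benjamini-Hochberg) under 0.05, the log2 fold change of liver minus brain was over 1 in size, and no liver library overlapped a brain library, so that each of the 8 liver-brain pairs had the same direction. Without overlap in scaled counts were 74.6% of the genes tested, where chance gives 13.3% for 2 against 4 libraries. The liver share of that split depended on the scaling. Counts were scaled by TMM, which assumes that most genes do not differ. Without it, on library size alone, 2472 genes were higher in liver and 9724 higher in brain, so the liver share of calls went from 49.1% to 20.3%. TMM moved log2 fold changes towards liver, by 1.24 in the median, and the median over all genes tested was -0.01 with TMM and -1.26 on library size. Called under both scalings were 2472 genes higher in liver (12.5%) and 5272 higher in brain (26.7%). Of the 5077 genes called higher in liver under TMM, 4460 kept a log2 fold change above 0 on library size and 617 turned below it. Asking for no overlap in TPM in place of scaled counts left 2851 genes higher in liver and 5279 higher in brain. In TPM, whether called or not, 14.4% of the genes tested were higher in both livers than in all 4 brain libraries and 67.9% lower. Of the 5077 genes called higher in liver, 1715 had TPM values that overlapped between the tissues, and in 511 both livers lay below all 4 brain libraries in TPM. All 5272 genes called higher in brain were also higher in all 4 brain libraries than in both livers in TPM.

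The tissues also differed in how much of the total a few genes took, by an amount that depended on the unit. The 10 genes with most counts took 22.8% and 24.9% of the counts in liver but 2.91 to 3.71% in brain. In TPM, which is scaled for length, the 10 highest genes held 21.3% and 22.99% in liver and 10.1 to 13.7% in brain. *Alb* alone held 10.7% and 11.2% in liver. *LOC121136508*, a provisional symbol chosen after its values were seen, held 7.62 to 10.1% in brain. At 1 TPM or more were 14206 and 13699 genes in liver and 17850 to 18195 in brain. Across genes, which are not independent replicates, log2 levels of a liver and a brain library correlated at 0.482 to 0.519. Libraries of the same tissue from the 2 genotypes correlated at 0.984 to 0.987, and cortex with SCN at 0.950 to 0.956. The p-values measure only the spread between these libraries, in which cortex and SCN count as replicates of brain although they are different tissues.

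**Figure D1:**
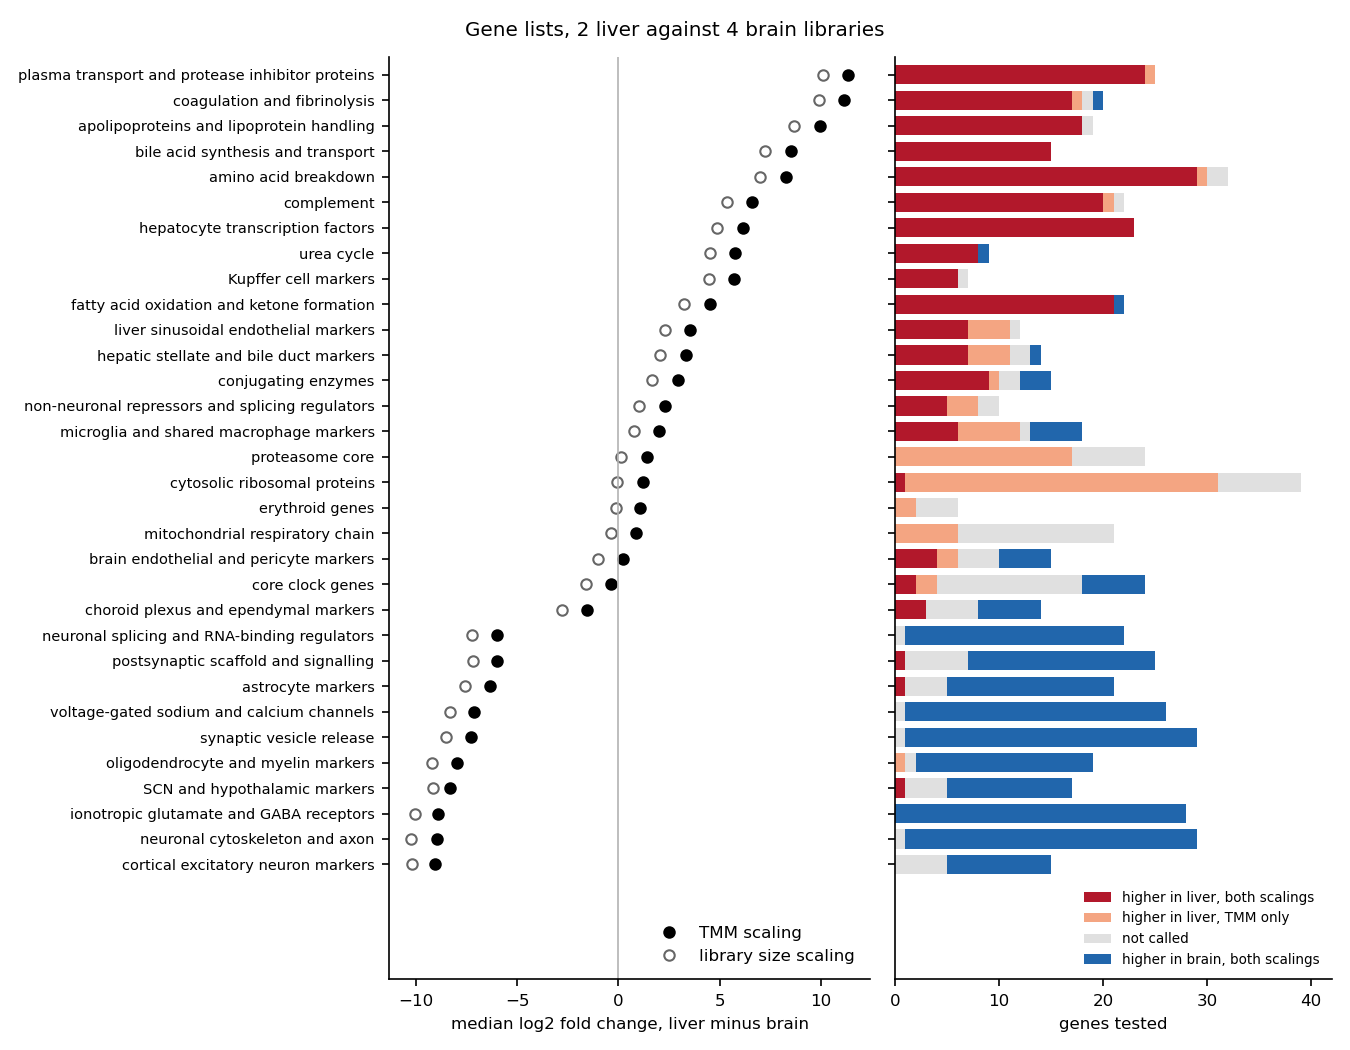
Median log2 fold change (liver minus brain) of 32 gene lists under TMM and library size scaling (left), and the number of tested members higher in liver, not called or higher in brain (right). The medians of the ribosomal, erythroid, respiratory chain and brain endothelial lists lie above 0 under TMM and below 0 on library size.

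By level alone, 233 of 31593 genes (0.738%) were liver-restricted, at 10 TPM or more in both liver libraries and under 1 TPM in all 4 brain libraries. Brain-restricted by the mirror rule were 1267 genes (4.01%), at 10 TPM or more in all 4 brain libraries and under 1 TPM in both livers. These sets describe levels and carry no test. Both were much smaller with 0.1 TPM as the limit on the low side, with counts given in the section on processing. The liver-restricted set was small in number yet held 3.63% and 3.27% of all liver TPM, and 80 of its genes were at 100 TPM or more. *Alb*, at 10.7% and 11.2% of liver TPM, was not in it, since it exceeded 1 TPM in brain. The brain-restricted set held 11.9 to 13.5% of brain TPM, and 174 of its genes were at 100 TPM or more. In liver-restricted genes 105 of 233 had only a provisional LOC symbol, against 118 of 1267 in brain-restricted genes.

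Restricted genes were ranked by their lowest library on the high side. By that rank the most abundant named liver-restricted genes were of lipoprotein, bile acid and complement function. The limit of 1 TPM in brain left out more abundant liver genes, among them *Alb*, *Hp*, *Gc*, *Apoa1* and *Fgb*. Of 25 tested genes of plasma transport proteins and protease inhibitors 1 was liver-restricted. *Apob*, the scaffold protein of very-low-density lipoprotein, was at 781 and 741 TPM in liver and 0.579, 0.169, 0.353 and 0.863 TPM in brain. *Slc27a5*, which couples bile acids to coenzyme A, was at 482 and 473 TPM in liver and 0.8899, 0.589, 0.433 and 0.752 TPM in brain. The complement genes *C9* and *C4bpa*, a pore-forming component and an inhibitor, reached 528 and 458 TPM and 438 and 687 TPM in liver. The other 6 of the 10 most abundant by that rank had LOC symbols and lay between 448 and 936 TPM in liver. *LOC121138693*, uneven at 115 and 896 TPM in liver, fell outside the 10. The brain-restricted set was led by *LOC101822529*, without a name in these tables, at 0.409 and 0.924 TPM in liver and 2782, 3352, 5417 and 4561 TPM in brain. *Ptgds*, the prostaglandin D synthase of meninges and glia, followed at 0.3803 and 0.797 TPM in liver and 1229, 1553, 5043 and 2802 TPM in brain. *Uchl1*, a neuronal deubiquitinating enzyme, was at 0.0259 and 0.229 TPM in liver and 952, 899, 1058 and 1169 TPM in brain. *Resp18*, a protein of the secretory pathway of neuroendocrine cells, was at 0.141 and 0.721 TPM in liver and 809, 833, 1474 and 1692 TPM in brain. In each of these genes the lowest library of the high side stood over 100 times above the highest library of the other.

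Genes for proteins that hepatocytes secrete into plasma had the highest median of the 33 lists. All 25 tested transport proteins and protease inhibitors were higher in liver, 24 of them under both scalings, with a median log2 fold change of 11.34 beside -0.01 over all genes. Their summed level was 188568 and 211180.0 TPM in liver and 2362, 2963, 1019 and 925 TPM in brain. *Alb*, serum albumin, alone was at 107273 and 112117 TPM in liver and 112, 43.9, 52.2 and 72.9 TPM in brain. Its log2 fold change was 12.22 ± 1.08 (SE), with an adjusted p of 0.000272 (edgeR quasi-likelihood, Benjamini-Hochberg). *Hp*, haptoglobin, which binds free haemoglobin, was at 14534 and 19666 TPM in liver and 13.7, 8.27, 9.397 and 14.7 TPM in brain, a log2 fold change of 12.12 ± 0.56 (SE). *Gc*, the vitamin D binding protein, was at 8144 and 7749 TPM in liver and 10.03, 4.89, 3.75 and 5.71 TPM in brain. The brain level of a list member was 0.125% of its liver level in the median. The source of the *Alb* counts in the brain libraries was not tested.

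*Ttr*, the thyroxine carrier transthyretin, had high and uneven brain values, at 15212 and 15372 TPM in liver and 1837, 2505, 165 and 24.1 TPM in brain. It was much higher in the cortex libraries than in the SCN libraries, and its log2 fold change of 5.34 ± 1.61 (SE) had a wide error. Without *duper* liver (5.41) or without wild-type liver (5.28) *Ttr* was no longer called. Transthyretin is also a main product of the choroid plexus. Of 14 tested choroid plexus and ependymal markers 3 were higher in liver and 6 in brain (21.4% and 42.9%, beside 25.7% and 26.7% of all genes). On library size 3 and 9 were (21.4% and 64.3%, beside 12.5% and 49.2%). The median of the markers was -1.56 (-2.77 on library size, -1.25 under TMM with genes at 0 in liver set at their bound). Their summed level was 16644 and 16694 TPM in liver and 1944, 2662, 329 and 148 TPM in brain, and by mean level *Ttr* was the most abundant on both sides. *Kl*, which encodes klotho, was at 6.49, 3.004, 1.23 and 1.26 TPM in brain and at 0 in liver. *Otx2*, a transcription factor of choroid plexus, was at 4.91, 3.404, 0.438 and 0.132 TPM in brain and at 0 in liver. Taking 3 counts per library as the limit that 0 allows, *Otx2* was at least 1.36-fold higher in brain. The call of *Otx2* was lost without either cortex library (fitted log2 fold changes -7.72 and -7.81) or either liver library (-8.04 and -8.53). These fits over 0 counts do not use that limit and are no measure of the fold. *Kcnj13*, a potassium channel of that epithelium, was at 0.0728 and 0.121 TPM in liver and 12.8, 10.6, 11.6 and 2.102 TPM in brain. *Ccdc153*, an ependymal marker, was at 0 and 0.0402 TPM in liver and 4.19, 28.9, 37.1 and 30.7 TPM in brain. *Foxj1*, the transcription factor of motile cilia, was at 0.00963 and 0 TPM in liver and 6.91, 8.46, 8.62 and 7.49 TPM in brain, and *Dynlrb2*, a dynein light chain, was at 8.63, 22.9, 29.9 and 19.04 TPM in brain and at 0 in liver. Of the 14 markers 4 were higher in both cortex libraries than in both SCN libraries, namely *Ttr*, *Otx2*, *Kl* and *Kcne2*. Lower in both were 3, *Ccdc153*, *Prlr* and *Tmem212*, and 7 overlapped. Over all genes tested 29.8% were higher in both cortex libraries, 31% were lower in both and 39.2% overlapped (16.7%, 16.7% and 66.7% by chance for 2 against 2), so the 4 and 3 are no result about these markers. *Kcne2*, *Prlr* and *Tmem212* were chosen after their values were seen. Besides *Ttr* the members higher in liver were *Rarres2*, the signal protein chemerin, at 1354 and 1157 TPM in liver and 24.04, 38.7, 33.3 and 31.7 TPM in brain, and *Aqp1*, a water channel, at 62.6 and 90.5 TPM in liver and 11.5, 8.32, 10.2 and 3.75 TPM in brain. The part of choroid plexus RNA in the brain values was not tested.

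Apolipoprotein genes followed the same pattern. Of 19 tested genes of apolipoproteins and lipoprotein handling, 18 were higher in liver under both scalings, with a median of 9.96. *Apoa1*, the main protein of high-density lipoprotein, was at 6511 and 7520.4 TPM in liver and 6.77, 3.84, 5.303 and 5.31 TPM in brain, a log2 fold change of 11.97 ± 0.42 (SE). *Apoc3*, an inhibitor of lipoprotein lipase, was at 6292 and 7990.4 TPM in liver and 4.99, 5.15, 5.7 and 4.99 TPM in brain. *Apoe*, which astrocytes also make, differed far less, with 14466 and 15578 TPM in liver and 2342, 2339, 3446 and 3767 TPM in brain and a log2 fold change of 3.91 ± 0.41 (SE). It was the most abundant gene of the list on both sides.

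In the coagulation list 18 of 20 tested genes were higher in liver and 1 in brain (17 and 2 on library size), with a median of 11.13. The 3 fibrinogen chains stood together. *Fgb* was at 2493 and 5805 TPM in liver and 4.26, 1.93, 2.25 and 2.27 TPM in brain. *Fga* and *Fgg* reached 1571 and 3468 TPM and 2145 and 4857 TPM in liver, and the highest brain value of the 3 genes was that of *Fgb* in wild-type cortex. In each of the 3 the *duper* liver value was over 2 times the wild-type liver value. The log2 fold change of *Fgb* was 12.17 ± 0.68 (SE), with an adjusted p of 5.38e-05 (edgeR quasi-likelihood, Benjamini-Hochberg). *Serpinc1*, antithrombin, the main inhibitor of thrombin, was at 2227 and 2514 TPM in liver and 1.09, 1.44, 1.49 and 0.554 TPM in brain. The 1 member higher in brain was *F13a1*, the A subunit of factor XIII, which macrophages also make, at 0.783 and 0.926 TPM in liver and 4.998, 5.17, 13.5 and 8.24 TPM in brain. That call was lost without *duper* SCN (log2 fold change -1.54), *duper* liver (-2.11) or wild-type liver (-1.16). Of 22 complement genes 21 were higher in liver, 20 under both scalings. *C3*, the central component, was at 4034 and 6426 TPM in liver and 16.1, 16.7, 22.8 and 27.9 TPM in brain, and *Cfb*, factor B of the alternative pathway, at 1291 and 1759 TPM in liver and 1.54, 2.32, 11.9 and 9.12 TPM in brain. The brain values of *Cfb* were higher in both SCN libraries than in both cortex libraries.

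All 23 hepatocyte transcription factors tested were higher in liver under both scalings, with a median of 6.15 (5.88 with genes at 0 in brain set at their bound). *Hnf4a*, a nuclear receptor that sets the hepatocyte programme, was at 212 and 243 TPM in liver and 0.161, 0.799, 0.113 and 0.544 TPM in brain. Its log2 fold change was 11.09 ± 0.53 (SE), with an adjusted p of 3.82e-05 (edgeR quasi-likelihood, Benjamini-Hochberg). *Creb3l3*, a membrane-bound factor of fasting lipid metabolism, was the most abundant of them there, at 278 and 257 TPM in liver and 1.904, 1.22, 0.381 and 1.29 TPM in brain. *Nr1i3*, the xenobiotic receptor CAR, was at 188 and 157 TPM in liver and 1.37, 1.66, 1.01 and 0.851 TPM in brain. In all 4 brain libraries 4 members had a count of 0. *Nr1h4*, the bile acid receptor FXR, was at 93.6 and 62.9 TPM in liver and was at least 354-fold higher there, taking 3 counts per library as the limit that 0 allows. By the same limit *Foxa2*, at 25.5 and 25.98 TPM in liver, was at least 146-fold higher. *Gata4*, at 14.97 and 11.7 TPM in liver, was at least 122-fold higher and *Foxa1*, at 4.01 and 4.88 TPM in liver, at least 49-fold. Such bounds cover counting error only. The brain level of a member was 4.11% of its liver level in the median, and under 1% in 11 of the 23. *Nr1h3*, the oxysterol receptor LXR alpha, was at 165 and 131 TPM in liver and 8.698, 9.12, 17.4 and 21.1 TPM in brain.

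Nitrogen disposal separated the tissues with a few exceptions. In the urea cycle list 8 of 9 genes were higher in liver and 1 in brain, under both scalings. *Cps1*, which fixes ammonia in the first step, was at 1485 and 1201 TPM in liver and 1.64, 0.814, 0.855 and 1.48 TPM in brain, a log2 fold change of 11.73 ± 0.52 (SE). *Otc*, the next enzyme, was at 509 and 406 TPM in liver and 4.398, 3.62, 4.93 and 4.87 TPM in brain. *Ass1*, argininosuccinate synthase, was at 1191 and 1125 TPM in liver and 15.6, 25.9, 116 and 129.6 TPM in brain. Both SCN values of *Ass1* were over 4 times the cortex values, and its log2 fold change was 5.58 ± 0.93 (SE). Of 32 genes of amino acid breakdown 30 were higher in liver, 29 under both scalings, and none in brain. *Hpd*, of tyrosine breakdown, was at 1647 and 1595 TPM in liver and 1.34, 0.737, 0.8495 and 0 TPM in brain, a log2 fold change of 12.73 ± 0.71 (SE). *Tdo2*, which opens the ring of tryptophan, was at 451 and 304 TPM in liver and 0.212, 0.352, 0.277 and 0.449 TPM in brain. *Gnmt*, which uses up methyl groups of S-adenosylmethionine, was at 1191 and 835 TPM in liver and 9.2, 8.895, 8.71 and 12.05 TPM in brain.

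**Figure D2:**
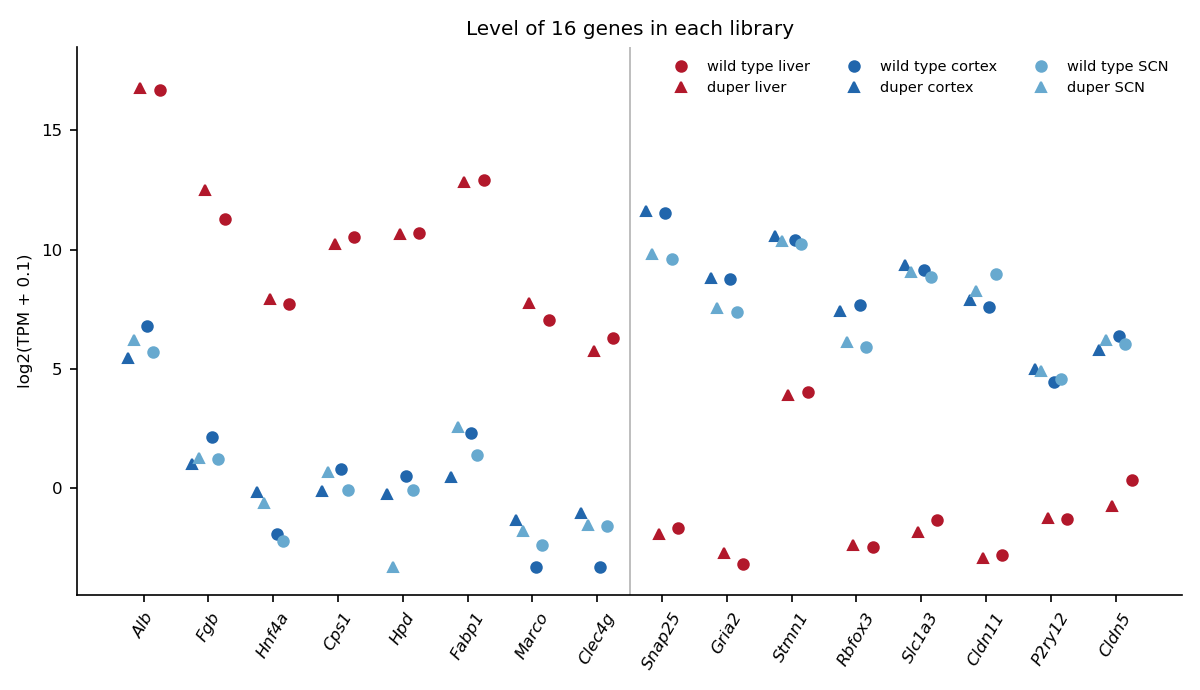
Level in each library of 16 genes as log2(TPM + 0.1), with colour for tissue and symbol for genotype, 8 genes higher in liver on the left and 8 higher in brain on the right. *Alb* reaches 107273 and 112117 TPM in liver, and in no gene shown does a liver library overlap a brain library.

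Bile acid and lipid metabolism stood with the liver. All 15 tested genes of bile acid synthesis and transport were higher in liver under both scalings, with a median of 8.52. *Cyp7a1*, the rate-limiting enzyme of bile acid synthesis, was at 68.7 and 43.9 TPM in liver and 0, 0.148, 0.134 and 0 TPM in brain. *Slc10a1*, the transporter that takes bile acids up from blood, was at 628 and 545 TPM in liver and 3.91, 2.42, 5.71 and 6.803 TPM in brain. *Scp2*, a peroxisomal thiolase and sterol carrier, was present throughout at 741 and 555 TPM in liver and 125, 138, 163 and 160.4 TPM in brain, and its log2 fold change was 4.48 ± 0.23 (SE). Of 22 genes of fatty acid oxidation and ketone formation 21 were higher in liver and 1 in brain, under both scalings. *Fabp1*, the fatty acid binding protein of liver, was at 7854 and 7378 TPM in liver and 4.91, 1.27, 2.54 and 5.74 TPM in brain. *Acaa2*, a mitochondrial thiolase of fatty acid oxidation, was at 1435 and 852 TPM in liver and 26.8, 31.5, 39.5 and 46.2 TPM in brain, a log2 fold change of 6.53 ± 0.34 (SE). The single member higher in brain was *Oxct1*, which lets a tissue burn ketone bodies, at 3.91 and 3.51 TPM in liver and 53, 63.9, 50.5 and 53.6 TPM in brain. Its log2 fold change was -2.32 ± 0.18 (SE), with an adjusted p of 0.000155 (edgeR quasi-likelihood, Benjamini-Hochberg). Many steps of fatty acid oxidation were present in brain too, and the brain level of the liver-called members was 12.1% of the liver level in the median, against 0.802% for the bile acid list.

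Among conjugating enzymes, which attach glutathione, sulfate or sugars, 10 of 15 tested genes were higher in liver and 3 in brain (9 and 3 under both scalings). That is 66.7% and 20%, beside 25.7% and 26.7% of all genes tested. On library size 9 and 4 were (60% and 26.7%, beside 12.5% and 49.2%). The brain share was below that of all genes, so the count of 3 is no result about the list. *Mgst1*, a membrane glutathione transferase, was at 2571 and 2369 TPM in liver and 68.4, 85.5, 124 and 114 TPM in brain. The first of the 3 higher in brain, *Ugt8*, which makes the galactolipid of myelin, was at 0.0136 and 0.0109 TPM in liver and 32.1, 33.99, 68.7 and 50.2 TPM in brain. *Sult4a1*, a sulfotransferase of neurons, was at 0.579 and 0.253 TPM in liver and 365, 316, 235 and 234 TPM in brain. The third, *Sult2b1*, which sulfates sterols, was at 0.0448 and 0.04199 TPM in liver and 4.26, 2.097, 4.92 and 6.15 TPM in brain. Of the 30 cytochrome P450 symbols listed only *Cyp17a1*, of steroid synthesis, was analysed here, at 113 and 323 TPM in liver and 1.05, 1.94, 1.77 and 2.13 TPM in brain. Near-identical gene copies occur in several of these families, and kallisto may have split their reads, so single members are uncertain.

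On the brain side the genes of synaptic transmission formed the counterpart. Of 29 genes of synaptic vesicle release 28 were higher in brain under both scalings and none in liver, with a median of -7.28. Their summed level was 88.7 and 67.97 TPM in liver and 13973, 13831, 6203 and 6928 TPM in brain. *Snap25*, a membrane fusion protein of vesicle release, was at 0.216 and 0.163 TPM in liver and 2975, 3148, 784 and 913 TPM in brain. Its log2 fold change was -11.77 ± 1.23 (SE), with an adjusted p of 0.000524 (edgeR quasi-likelihood, Benjamini-Hochberg). *Rab3a*, a GTPase on synaptic vesicles, was at 0.649 and 1.08 TPM in liver and 838, 725, 519.5 and 549 TPM in brain. *Vamp2*, the vesicle partner of SNAP25, kept a measurable liver level, at 12.6 and 10.1 TPM in liver and 935, 897, 518 and 549 TPM in brain. In bulk tissue, fewer cells of a type and less RNA per cell cannot be told apart in any of these differences.

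The postsynaptic list had 18 of 25 genes higher in brain, 1 in liver and 6 not called. *Nrgn*, a calmodulin-binding protein of spines, was at 0.147 and 0.337 TPM in liver and 2820.1, 2324, 312 and 322 TPM in brain, and *Camk2a*, a kinase of synaptic plasticity, at 0.2204 and 0.167 TPM in liver and 1335, 1146, 170.0 and 163 TPM in brain. Both were over 6 times higher in each cortex library than in either SCN library, and their errors were wide, -10.91 ± 1.87 (SE) and -10.11 ± 1.68 (SE). *Dlg4*, the scaffold PSD-95, was at 2.09 and 1.7 TPM in liver and 425, 384, 214 and 225 TPM in brain. The member higher in liver was *Homer2*, at 11.6 and 12.8 TPM in liver and 11.01, 9.07, 3.92 and 4.08 TPM in brain, a log2 fold change of 2.43 ± 0.48 (SE) with TMM and 1.21 on library size. Its TPM ranges almost met, and without *duper* liver it was not called (2.15).

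All 28 ionotropic glutamate and GABA receptor subunits were higher in brain under both scalings, with a median of -8.89 (-8.57 with the gene at 0 in liver set at its bound). *Gria2*, an AMPA receptor subunit, was at 0.008596 and 0.0497 TPM in liver and 430.1, 453, 168 and 186 TPM in brain, a log2 fold change of -12.07 ± 1.09 (SE). *Gria1*, another one, was at 0.00856 and 0.0138 TPM in liver and 132, 135, 95.9 and 99.6 TPM in brain. *Grin1*, the subunit shared by NMDA receptors, had 3 counts in the 2 livers together, and brain exceeded liver by a ratio of 7955 (95% counting interval 2722 to 38574). *Gabrb2*, a GABA-A subunit, had 1 count in liver, with 102.7, 117, 45.3 and 57.6 TPM in brain, a ratio of 18449 (95% counting interval 3311 to 728711). *Gabrq* was at 21.7, 22.6, 57.9 and 65.2 TPM in brain, had no count in liver and was at least 654-fold higher in brain. Of voltage-gated sodium and calcium channel genes 25 of 26 were higher in brain and none in liver. *Scn2b*, a sodium channel beta subunit, was at 0.173 and 0.228 TPM in liver and 213, 212, 158 and 173 TPM in brain. *Cacng8*, a gamma subunit of that family that also serves AMPA receptors, had no count in liver and was at least 297-fold higher in brain, at 76.1, 62.03, 37.7 and 53.3 TPM in brain. *Htr2c*, a serotonin receptor, was also at 0 in both livers and was at least 636-fold higher in brain. *Pcp4*, a calmodulin regulator, was at 759.7, 673, 275 and 305 TPM in brain and at least 534-fold higher there.

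The cytoskeleton of axons and dendrites gave 28 of 29 genes higher in brain and none in liver, with a median of -8.98. *Kif5a*, a motor of axonal transport, was at 0.0659 and 0.169 TPM in liver and 1160.5, 1072, 482 and 583 TPM in brain. *Stmn1*, which destabilises microtubules, was at 16.1 and 14.8 TPM in liver and 1339, 1532, 1219 and 1306 TPM in brain. *Tubb2a*, a beta tubulin, was the most abundant of the list in liver, at 105 and 71.4 TPM in liver and 718, 655, 710.4 and 772 TPM in brain and a log2 fold change of -1.47 ± 0.21 (SE). Of 22 neuronal splicing and RNA-binding regulators 21 were higher in brain. *Rbfox3*, known as the antigen NeuN, was at 0.0792 and 0.0918 TPM in liver and 206, 169.6, 61.1 and 69.7 TPM in brain. *Celf4*, an RNA-binding protein, was at 0.0691 and 0.1396 TPM in liver and 214, 212, 161 and 167 TPM in brain. Of 10 repressors and splicing regulators of non-neuronal cells 8 were higher in liver and none in brain under TMM, and 5 and 2 on library size, with medians of 2.29 and 1.03. The 5 were called under both scalings. *Khdrbs1* and *Grhl2*, chosen after their values were seen, were the 2 higher in brain on library size. *Esrp2*, an epithelial splicing factor, was at 54.2 and 52.9 TPM in liver and 0.295, 0.1304, 0.276 and 0.0832 TPM in brain. *A1cf*, a cofactor of apolipoprotein B editing, was at 85.3 and 66.04 TPM in liver and 0.0419, 0.0557, 0.0168 and 0.106 TPM in brain. *Ptbp1*, which keeps neuronal exons out, was present on both sides, at 59.2 and 60.1 TPM in liver and 27.6, 24.3, 41.99 and 36.5 TPM in brain, and its log2 fold change was 2.45 ± 0.26 (SE).

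Most glial markers were higher in brain too. Of 21 astrocyte markers 16 were higher in brain and 1 in liver, with a median of -6.34. *Slc1a3*, a glutamate transporter, was at 0.292 and 0.181 TPM in liver and 568, 648, 460.0 and 536 TPM in brain. *Aldoc*, a glycolytic enzyme of astrocytes, was at 0.0497 and 0.173 TPM in liver and 937, 979, 937 and 1003 TPM in brain. *Aldh1l1*, a folate enzyme used as an astrocyte marker, was the reverse, at 530.3 and 412 TPM in liver and 17.5, 18.7, 18.8 and 20.1 TPM in brain, a log2 fold change of 6.21 ± 0.21 (SE). The enzyme is also made by hepatocytes. Of 19 oligodendrocyte and myelin markers 17 were higher in brain under both scalings, with a median of -7.97. *Cldn11*, a claudin of the myelin sheath, was at 0.0437 and 0.0315 TPM in liver and 194, 236, 509 and 306 TPM in brain. *Sox10*, a transcription factor of the lineage, was at 24.7, 30.1, 45.7 and 41.9 TPM in brain, had no count in liver and was at least 364-fold higher in brain. *Aspa*, which breaks down N-acetylaspartate, was called higher in liver at 24.1 and 23.4 TPM in liver and 18.8, 39.2, 35.9 and 38.2 TPM in brain. Its TPM values overlapped, and its log2 fold change was 1.11 under TMM but -0.14 on library size. That call was also lost without wild-type cortex (0.90), *duper* liver (1.27) or wild-type liver (0.96).

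Macrophage genes did not fall on one side. In the list of microglia and shared macrophage markers 12 of 18 genes were higher in liver and 5 in brain, with 6 and 5 under both scalings, and the median was 2.02. Their summed level was 675 and 1062 TPM in liver and 549, 614, 646 and 771 TPM in brain. The 12 and 5 calls are 66.7% and 27.8% of the list, beside 25.7% and 26.7% of all genes tested. The brain share is near that of all genes, so the count of 5 is no result about the list. Among the 5 were *P2ry12*, *Trem2* and *Cx3cr1*, which are used as microglial markers. *P2ry13* and *Sall1*, also used as microglial markers and chosen after their values were seen, were called higher in liver under TMM only. *P2ry12*, a purine receptor, was at 0.311 and 0.317 TPM in liver and 22, 31.8, 23.5 and 30.3 TPM in brain, with an adjusted p of 4.19e-05 (edgeR quasi-likelihood, Benjamini-Hochberg). *Trem2*, a lipid receptor, was at 0.596 and 0.845 TPM in liver and 20.5, 19.4, 22.96 and 20.9 TPM in brain, and *Cx3cr1*, the fractalkine receptor, at 0.994 and 0.983 TPM in liver and 14.3, 22.8, 14.2 and 25.2 TPM in brain. Shared macrophage genes such as *C1qa* and *Cd68* were higher in liver. In the 12 genes called higher in liver the brain TPM was 62.4% of the liver TPM in the median and 107% at most. On library size 6 and 6 of the 18 genes were called (33.3% and 33.3%), beside 12.5% and 49.2% of all genes. *C1qa*, of the first complement component, was the most abundant of the list in liver at 155 and 279 TPM in liver and 67.05, 63.4, 76.3 and 88.3 TPM in brain. *Cd68*, a lysosomal protein, was at 22.4 and 29.3 TPM in liver and 6.84, 7.82, 7.66 and 6.51 TPM in brain, a log2 fold change of 3.40 ± 0.23 (SE). Markers of Kupffer cells, the macrophages of liver, were higher in liver in 6 of 7 genes under both scalings and higher in brain in none, with a median of 5.72. *Marco*, a scavenger receptor, was at 132 and 219 TPM in liver and 0, 0.296, 0.0897 and 0.189 TPM in brain. *Slc40a1*, the iron exporter ferroportin, was the most abundant of them in liver, at 222 and 249 TPM in liver and 13.8, 14.1, 10.5 and 15.3 TPM in brain. *Cd5l*, a secreted macrophage protein, was at 90.7 and 143 TPM in liver and 0.369, 0.488, 0.0369 and 0.156 TPM in brain. *Clec4f*, a lectin of Kupffer cells, was at 50.4 and 95.7 TPM in liver with a single count over the 4 brain libraries, a ratio of 10151 (95% counting interval 1822 to 400945). The share of macrophages in each tissue was not tested.

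Markers of liver endothelium were mostly higher in liver, while those of brain endothelium and pericytes were split. Of 12 tested markers of liver sinusoidal endothelium 11 were higher in liver, 7 under both scalings, with a median of 3.52. *Ehd3*, counted among the 11, was at 49.7 and 46.7 TPM in liver and 67.7, 65.6, 75.2 and 66.7 TPM in brain. Its log2 fold change was 1.06 under TMM and -0.19 on library size. *Clec4g*, a lectin of that endothelium, was at 77.5 and 54.4 TPM in liver and 0, 0.384, 0.233 and 0.246 TPM in brain. *Fcgr2b*, an inhibitory Fc receptor, was at 129 and 116 TPM in liver and 6.92, 8.92, 8.99 and 9.28 TPM in brain, a log2 fold change of 5.40 ± 0.19 (SE). *Dnase1l3*, a secreted nuclease, was at 39.2 and 62 TPM in liver and 13.3, 15.2, 0.544 and 0.459 TPM in brain and not called on library size. Its cortex values stood far above its SCN values, and it was not called without *duper* liver (4.13) or wild-type liver (4.64). In the list of brain endothelial and pericyte markers 6 of 15 were higher in liver and 5 in brain (4 and 5 under both scalings). That is 40% and 33.3%, beside 25.7% and 26.7% of all genes tested. On library size 4 and 8 were (26.7% and 53.3%, beside 12.5% and 49.2%). With 15 genes, nothing is read from these shares. The median of the list turned from 0.23 under TMM to -1.02 on library size. *Slc2a1*, the glucose carrier of the blood-brain barrier, was at 1.35 and 1.49 TPM in liver and 114, 109, 107 and 105 TPM in brain. *Cldn5*, its tight junction protein, was at 1.16 and 0.491 TPM in liver and 81.9, 55.97, 66.1 and 74.7 TPM in brain, a log2 fold change of -4.92 ± 0.34 (SE). *Cdh5*, the cadherin of all endothelium, was higher in liver at 29.5 and 34.9 TPM in liver and 8.94, 11.9, 12.7 and 9.62 TPM in brain. *Vtn*, vitronectin, a pericyte marker in brain and a plasma protein of hepatocytes, was at 2828 and 3855 TPM in liver and 27.01, 23.7, 50.5 and 27.3 TPM in brain.

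Of 14 hepatic stellate and bile duct markers 11 were higher in liver and 1 in brain, 7 and 1 under both scalings and 7 and 2 on library size. *Colec11*, a lectin of stellate cells, was at 74.7 and 62.1 TPM in liver and 3.48, 0.982, 3.23 and 2.93 TPM in brain, and *Hgf*, hepatocyte growth factor, at 18.8 and 10.7 TPM in liver and 1.84, 1.71, 0.706 and 0.569 TPM in brain. *Spp1*, osteopontin, was higher in brain at 0.465 and 0.858 TPM in liver and 5.79, 5.37, 28.9 and 13.98 TPM in brain. That call was lost without *duper* SCN (-2.51), *duper* liver (-3.78) or wild-type liver (-1.80). Of 6 tested erythroid genes 2 (33.3%) were higher in liver under TMM and none on library size, beside 25.7% and 12.5% of all genes tested. With 6 genes, nothing is read from that count. Their median was 1.08 under TMM and -0.13 on library size, and their summed level was 77.1 and 71.5 TPM in liver and 54.5, 51.4, 60.4 and 45.3 TPM in brain. *Tfrc*, the transferrin receptor, was the most abundant of them on both sides, and *Alas2*, of haem synthesis, was at 14.9 and 7.52 TPM in liver and 6.48, 2.83, 17.4 and 5.501 TPM in brain, with overlapping TPM values. Without *duper* liver *Alas2* was not called (1.76).

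The 4 brain libraries were not alike in the genes that mark a brain region. Of 15 cortical excitatory neuron markers 10 were higher in brain, none in liver and 5 not called, with a median of -9.08 (-5.12 with genes at 0 in liver set at their bound, or at no difference where that bound fell under 1). Their summed level was 74.3 and 64.8 TPM in liver and 1969, 1870.3, 154 and 163 TPM in brain. *Slc17a7*, the vesicular glutamate transporter of cortex, was at 0.0457 and 0 TPM in liver and 767, 669, 8.61 and 3.65 TPM in brain, and its log2 fold change of -12.46 ± 3.84 (SE) had an adjusted p of 0.032 (edgeR quasi-likelihood, Benjamini-Hochberg). *Neurod6*, a cortical transcription factor at 0 in liver, was at 91.9, 109.8, 2.26 and 0.284 TPM in brain and not called, with an adjusted p of 0.061 (edgeR quasi-likelihood, Benjamini-Hochberg). Leaving out wild-type cortex (-10.70), *duper* liver (-11.52) or wild-type liver (-15.87) ended the call of *Slc17a7*. Leaving out wild-type SCN (-13.23) or *duper* SCN (-13.69) made a call of *Neurod6*. The values of *Neurod6*, and that of *Slc17a7* without wild-type liver, are fits over 0 counts and no measure of the fold. By the limit of 3 counts per library, *Neurod6* was at least 2.72-fold higher in brain. Of 17 tested SCN and hypothalamic markers 12 were higher in brain and 1 in liver, with a median of -8.31 (-5.95 at the bounds). *Scg2*, a secretory granule protein, was at 0.0221 and 0.3999 TPM in liver and 221, 207, 748 and 827 TPM in brain. *Nms*, the peptide neuromedin S of SCN neurons, was at 0, 0, 33.5 and 13.4 TPM in brain and at 0 in liver, and was not called, with an adjusted p of 0.0838 (edgeR quasi-likelihood, Benjamini-Hochberg). *Six6*, a transcription factor of the SCN, was at 0.3098, 0.204, 8.79 and 6.005 TPM in brain and at 0 in liver. *Sst*, somatostatin, was found in both brain tissues, at 506, 414, 197 and 273 TPM in brain, and was at least 452-fold higher than in liver. *Gad2*, which makes GABA, was at 0.158 and 0.228 TPM in liver and 129, 141, 264 and 290.3 TPM in brain, about 2 times higher in the SCN than in the cortex of each genotype. *Cck*, the peptide cholecystokinin, was higher in cortex instead, at 741, 603, 71.3 and 41.3 TPM in brain, and at least 78.8-fold higher in brain than in liver. By the limit of 3 counts per library, *Six6* was at least 1.06-fold higher in brain. With *duper* or wild-type liver left out, the calls of *Cck* (-13.36 and -13.06) and *Six6* (-8.43 and -7.77) were lost. These log2 fold changes are fits over 0 counts and are no measure of the fold. *Rgs16*, a G protein regulator known from the SCN, was higher in liver, at 125 and 135 TPM in liver and 11.1, 9.93, 24.8 and 23.2 TPM in brain. A gene confined to one of the brain tissues could thus be at 0 in liver and still miss the adjusted threshold.

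For the clock genes, which work in every tissue, the count of calls depended on the scaling. Of 24 tested, 4 were higher in liver (16.7%), 6 in brain (25%) and 14 neither under TMM, beside 25.7% and 26.7% of all genes tested. On library size 2 were higher in liver (8.33%) and 15 in brain (62.5%), beside 12.5% and 49.2% of all genes, and 2 and 6 were called under both scalings. Their median was -0.36 with TMM and -1.59 on library size. *Nfil3*, a repressor, was higher in liver, at 26.3 and 30.97 TPM in liver and 11.4, 9.22, 7.23 and 9.62 TPM in brain, a log2 fold change of 3.21 ± 0.24 (SE). *Nr1d1*, the repressor REV-ERB alpha, was higher in brain, at 4.15 and 6.08 TPM in liver and 98.7, 98.6, 63.8 and 63.8 TPM in brain, with an adjusted p of 0.00182 (edgeR quasi-likelihood, Benjamini-Hochberg). *Rorb*, the ROR of nervous tissue, was at 0.251 and 0.103 TPM in liver and 28.6, 26.8, 17.7 and 17.7 TPM in brain, and *Bhlhe41*, a repressor, at 0.173 and 0.369 TPM in liver and 25.9, 32.1, 26.5 and 35.7 TPM in brain. With 1 time point, a difference in level and a difference in phase between tissues cannot be told apart. *Cry1* had a log2 fold change of 0.92 ± 0.22 (SE) under TMM and -0.32 on library size and was not called.

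For families that every cell uses, the calls depended on the scaling. Under TMM 25.7% of all genes tested were higher in liver. Of 39 ribosomal protein genes 31 (79.5%) were higher in liver under TMM but 1 under both scalings. Their median turned from 1.20 to -0.06 on library size. Their summed TPM was 17867 and 19766 TPM in liver and 20582, 19524, 27089.6 and 26334 TPM in brain, where wild-type liver lay under the brain range and *duper* liver inside it. In the 31 ribosomal genes called higher in liver the brain TPM was 126% of the liver TPM in the median. Of 24 proteasome core genes 17 (70.8%) were higher in liver under TMM and none on library size, with medians of 1.39 and 0.14. Their summed TPM was 3374 and 3089.7 TPM in liver and 3631, 3750.0, 3965 and 4034 TPM in brain. Of 21 respiratory chain genes 6 (28.6%) were higher in liver under TMM, near the share of all genes, so the 6 are no result about them. On library size none was higher in liver and 2 (9.52%) were higher in brain, beside 12.5% and 49.2% of all genes. The median of the respiratory chain genes turned from 0.89 to -0.36. Their summed TPM was 6345 and 5571 TPM in liver and 10512, 10223, 8952 and 9031 TPM in brain. In summed TPM both livers lay below all 4 brain libraries for the proteasome and for the respiratory chain. *Rpl10* was the ribosomal gene higher in liver under both scalings, at 745 and 990.3 TPM in liver and 385, 385, 648 and 561 TPM in brain. *Rplp1*, the most abundant of that list, was at 1393 and 1906 TPM in liver and 1409, 1301, 1899.9 and 1780.1 TPM in brain, with overlapping values. *Psmb4*, the most abundant proteasome gene, was at 313 and 283 TPM in liver and 253, 246, 291 and 292 TPM in brain. *Sdhc*, a membrane subunit of complex II, was at 366 and 324 TPM in liver and 269, 285, 279 and 288 TPM in brain, with both livers above brain, unlike the summed level of its list. The sign of the ribosomal and respiratory chain medians thus turned between the scalings, while the proteasome median kept its sign and lost its calls. Between the scalings log2 fold changes moved by 1.24 in the median over all genes. Which median turned follows from its size under TMM and is no trait of these families.

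Pairs of genes related in sequence or function allow a comparison inside a library, where scaling between libraries drops out. Of 28 pairs listed, 25 had both members among the genes analysed here. In 25 of 25 the log2 ratio of the liver member to the other (TPM + 0.1) was higher in both livers than in all 4 brain libraries. Over every ordered pair of 2 tested genes that share was 37.3%, and chance gives 6.67% for 2 against 4. The pairs were listed for their liver and brain members, which favours that direction, so nothing is read from this count. In 14 pairs the liver member was called higher in liver and the other higher in brain, in 13 under both scalings. For pyruvate kinase, *Pklr* was at 128 and 122 TPM in liver and 0.718, 0.119, 0.323 and 0.606 TPM in brain and *Pkm* at 23.4 and 24.6 TPM in liver and 1062, 1089, 1013 and 1049 TPM in brain. *Pklr* was 84.6% and 83.3% of that pair in liver and at most 0.0675% in brain.

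Under TMM the pairs of glucose synthesis divided through the liver member. In glycogen phosphorylase both members were called, with log2 fold changes of 2.47 for *Pygl* and -4.58 for *Pygb*. *Pck1*, which starts the synthesis of glucose, was at 1304 and 507 TPM in liver and 0.698, 1.03, 0.619 and 0.511 TPM in brain, and its mitochondrial relative *Pck2* was not called at 5.84 and 6.32 TPM in liver and 18.97, 17.1, 20.5 and 25.7 TPM in brain. *Fbp1*, a later enzyme of that pathway, was at 1138 and 1017 TPM in liver and 2.005, 0.661, 0.902 and 1.69 TPM in brain. Both enzymes were over 100 times higher in each liver than in any brain library. *Pygl* and *Pygb*, the liver and brain forms of glycogen phosphorylase, were at 159 and 84.2 TPM in liver and 38.5, 56.7, 75.6 and 84.6 TPM in brain and at 2.14 and 3.52 TPM in liver and 155, 159, 228 and 249.5 TPM in brain. The TPM of *Pygl* in *duper* liver lay below that in *duper* SCN, so its TPM ranges overlapped, while the ratios within the pair did not. *Acsl1*, which activates fatty acids, was at 832 and 637 TPM in liver and 42.7, 42.5, 45.7 and 44.3 TPM in brain, and *Acsl6*, its brain relative, at 0.00989 and 0.0238 TPM in liver and 129, 132, 90.02 and 114 TPM in brain. *Gamt*, which makes creatine, was at 362 and 290.4 TPM in liver and 26.2, 24.5, 30.4 and 30.3 TPM in brain, while *Ckb*, the brain creatine kinase, was at 28.8 and 37.1 TPM in liver and 1824, 1602, 1321 and 1337 TPM in brain.

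In the next pairs, of transporters, enzymes and connexins, both members were called, in opposite directions. *Slc2a2*, a low-affinity glucose carrier, was at 213 and 164 TPM in liver and 0.427, 0.452, 0.272 and 0.431 TPM in brain. *Slc2a3*, the neuronal carrier, was at 0.828 and 1.55 TPM in liver and 73.9, 69.5, 42.4 and 41.7 TPM in brain. *Cpt1a*, which admits fatty acids to mitochondria, was at 263 and 81.9 TPM in liver and 14.9, 15.9, 21.1 and 14.7 TPM in brain, with a wild-type liver value over 3 times the *duper* one. *Cpt1c*, the brain form, was at 0.072 and 0.1302 TPM in liver and 44.1, 40.7, 32.9 and 41.6 TPM in brain. *Mat1a* and *Mat2a*, which make S-adenosylmethionine, were at 1808 and 1676 TPM in liver and 1.22, 0.538, 0.549 and 2.24 TPM in brain and at 29.5 and 25.2 TPM in liver and 220.1, 219, 258 and 216 TPM in brain. In connexins, *Gjb1* was at 327 and 307 TPM in liver and 8.896, 19.2, 29.01 and 25.4 TPM in brain and *Gja1*, of astrocytes, at 1.01 and 1.701 TPM in liver and 262, 304, 347 and 377 TPM in brain.

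**Figure D3:**
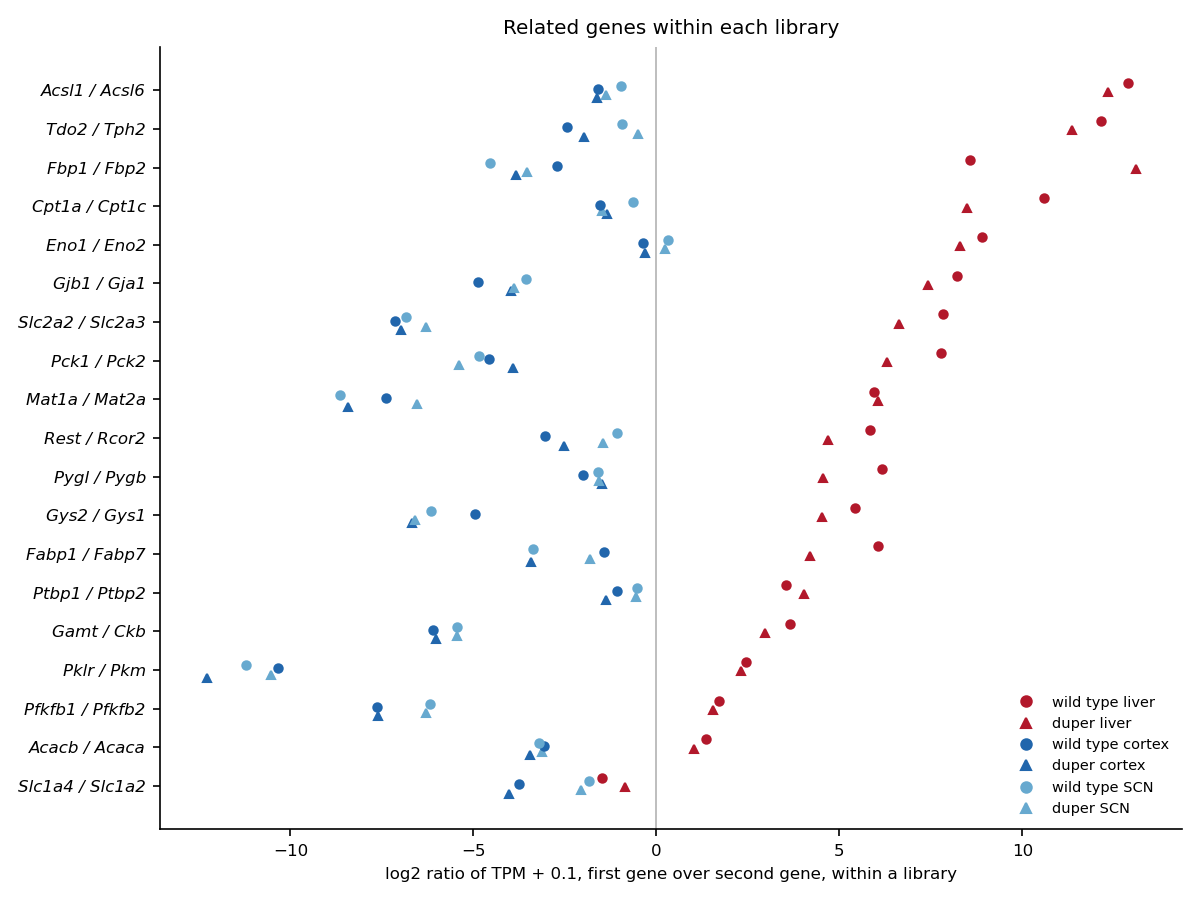
Within-library log2 ratio of TPM + 0.1 for 19 of the 25 pairs of related genes, with colour for tissue and symbol for genotype. In all 19 both liver values lie above the 4 brain values, and in the *Slc1a4* and *Slc1a2* pair all 6 values lie below 0.

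Other pairs departed from that pattern. *Eno1*, the general enolase, was at 179 and 202 TPM in liver and 786, 815, 848 and 868 TPM in brain and not called, while *Eno2*, the neuronal form, was at 0.275 and 0.547 TPM in liver and 1016, 1009, 677 and 736 TPM in brain. *Fabp7*, listed as the brain partner of *Fabp1*, was itself higher in liver, at 118 and 403 TPM in liver and 13.3, 14.7, 27.2 and 20.4 TPM in brain, a log2 fold change of 5.19 ± 0.58 (SE). *Slc1a4*, listed as the liver partner, was higher in brain, at 3.33 and 7.93 TPM in liver and 60.4, 52.9, 80.7 and 83.96 TPM in brain. Its astrocyte counterpart *Slc1a2* was at 9.43 and 14.5 TPM in liver and 815, 868, 287 and 348 TPM in brain. Without wild-type liver neither *Slc1a4* (-1.42) nor *Slc1a2* (-3.70) was called.

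Some genes expressed on both sides used different transcripts. Of 2906 genes with more than 1 annotated transcript and 10 TPM or more in every library, 20 had one main transcript in both livers and another in all 4 brain libraries, each holding at least 70% of the gene's TPM. The count depended on that share, with 54 genes at 60% and 5 at 80%. *Cltb*, clathrin light chain B, had 98.9% and 98.5% of its TPM in one transcript in liver, against 25.8%, 16.6%, 18.6% and 19.5% in brain. In neurons, clathrin light chains are known to carry extra exons. *Fxyd1*, a regulator of the sodium pump, had 93.7% and 94.7% in its liver transcript, against 19.4%, 18.6%, 28.8% and 24.6%. *Atp6v1h*, a subunit of the proton pump, had 91.4% and 96.4%, against 10.8%, 9.44%, 20.5% and 8.21%. *Ngef*, a guanine nucleotide exchange factor, had 94.4% and 96.5% against at most 0.155% in brain. *Ppp3ca*, the catalytic subunit of calcineurin, had 93.0% and 95.6%, against 7.43%, 6.41%, 20.2% and 17.2%. *Nsfl1c*, *Usp5* and *Cept1* were also among the 10 most abundant of these genes, ranked by the TPM of each gene in its lowest library. Under TMM, in none of these 8 genes was the summed level called different between liver and brain, though *Ppp3ca* was called without wild-type SCN (-2.39) or *duper* SCN (-2.37). On library size 6 of the 8 were called higher in brain, with log2 fold changes of -1.01 for *Fxyd1*, -1.97 for *Usp5*, -2.01 for *Cltb*, -2.09 for *Atp6v1h* and *Ngef* and -3.30 for *Ppp3ca*. In TPM both livers lay below all 4 brain libraries in all 8. The split of reads between transcripts is an estimate by kallisto, and no test was run on the shares.

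**Figure D4:**
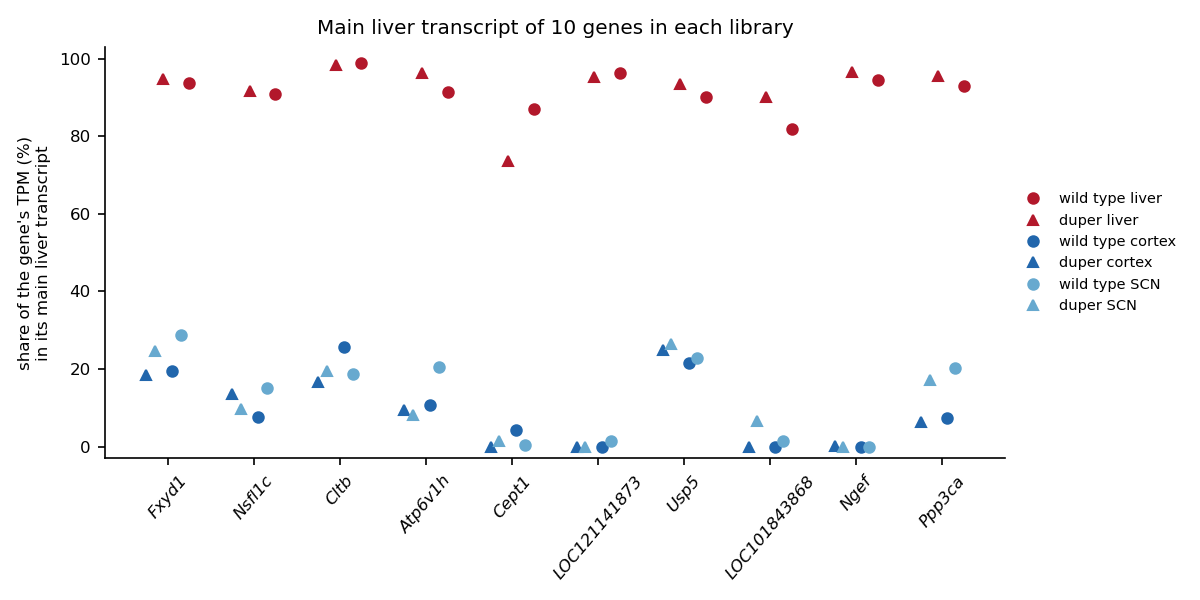
Share of a gene's TPM, in percent, held by its main liver transcript in each library, for 10 genes. Liver libraries lie at 73.5% or above and brain libraries at 28.8% or below.

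The liver-brain difference was next set against genotype. Of 19780 genes, 0 were called by edgeR's quasi-likelihood test of the interaction (Benjamini-Hochberg), and 702 had an unadjusted p under 0.05. The likelihood ratio test called 35 genes, 11 with a larger value in *duper* and 24 with a smaller one. DESeq2 called 21, split 5 and 16. With 1 liver library per genotype the spread in this test came only from cortex against SCN, so it is weak. The gene with the lowest p was *Foxm1*, a transcription factor of dividing cells, at 40.9 and 2.96 TPM in liver and 7.07, 7.62, 6.26 and 8.47 TPM in brain. Its interaction had an unadjusted p of 0.000220 and an adjusted p of 1.00 (edgeR's quasi-likelihood test, Benjamini-Hochberg). *Slc25a30*, a mitochondrial carrier, was at 54.8 and 9.096 TPM in liver and 11.6, 12.7, 12.3 and 13.4 TPM in brain. *Efcab1* was at 24.8 and 0.932 TPM in liver and 1.33, 2.597, 1.35 and 5.03 TPM in brain. In these 3 genes wild-type liver stood above the other 5 libraries. *Fam13c* and *Kndc1* had 0 counts in wild-type liver and 19 and 11 in *duper* liver, beside 49.5 to 60.6 TPM in brain and 39.3 to 49.6 TPM in brain. The 2 livers differ in hamsters and in their sexes as well as in *Cry1*, and these cannot be told apart.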

How the data were processed

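The members are the 6 libraries, taken from their labels. The genes, lists and rules were chosen with earlier results of these data known. The authors estimated transcript abundance with kallisto (version not given in the sources used here) against the hamster reference MesAur2.0, and the deposited estimated counts per gene are sums over transcripts made with tximport. The deposited TPM values, per gene and per transcript, and the transcript lengths in bases come from the same run by the authors. The library kit keeps strand. Symbols were matched to RefSeq names of BCM_Maur_2.0 for 31590 of 31593 genes and 67818 of 67818 transcripts, and no coordinates were used.

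Estimated counts were rounded to whole numbers. Genes passing edgeR's expression filter by side were scaled by TMM and fitted with side and genotype in edgeR 4.0.16 (R 4.3.3), which left 3 residual degrees of freedom. DESeq2 1.42.0 and limma 3.58.1 served as alternatives, and Python 3.11.15 with pandas 2.3.3, scipy 1.17.1 and matplotlib 3.10.9 for the rest. The scripts were tested on simulated data. For its bound, a gene at 0 on a side was set at 3 counts per library, which its fitted log2 fold changes do not use. Ratios with 1 to 3 counts have an exact 95% counting interval.

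Named genes are, per list, up to 4 called members highest in TPM on the list's side, up to 3 called in the opposite direction and the defining markers at 0. Also named are the 10 highest genes of each restricted set, the 5 largest called log2 fold changes in each direction, both members of each pair, *Cry1*, up to 10 transcript switches and up to 10 genes lowest in the interaction p. Restricted genes were ranked by the lowest library of their high side, and transcript switches by the lowest of all libraries. The text gives a selection of these, and some are not reported here.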

Additional observations from a re-analysis of the deposited data

Results flagged for a closer look

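Each set of 4 brain values was checked for a library far from the other 3. The measure was its gap to the nearest one over the whole range, against a 95% limit for 4 values. For genes the ratio was taken on log2 of TMM-scaled CPM with a small constant added, and for total count on the unlogged counts. The CPM below are printed unlogged. Of 173 sets checked 9 passed that limit, and chance alone gives about 1 in 20, so the number is close to that of chance. Wild-type SCN stood apart in total count, at 29936106 against 6788827 to 10391793 in the other 3 (ratio 0.844). In TMM-scaled CPM, *Aspa* was at 7.41 in wild-type cortex against 14.2 to 15.3 (0.903). *Fcgr2b* was at 7.18 in wild-type cortex against 9.42 to 9.70 in the other brain libraries (0.900). *Colec11* was at 0.458 in *duper* cortex against 1.37 to 1.65 (0.830). *Gnmt* was at 7.84 in *duper* SCN against 5.72 to 5.999 (0.850), and *Kcnj13* at 1.86 against 12.3 to 14.6 in the same library (0.910). *Ccdc153* was at 0.823 in wild-type cortex against 5.72 to 7.29 (0.873). *Sall1* was at 33.0 in wild-type SCN against 25.5 to 26.1 (0.916). *Clec4f* had its only brain count, 1, in wild-type SCN, the deepest brain library (1.0). Except for *Aspa*, these genes kept their call without each library in turn.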

How the results depend on the processing

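The number of genes higher in liver was 2472 on library size, 1966 by limma on log2(TPM + 1), 1982 on log2(TPM + 0.1), 2851 without overlap in TPM, 3329 with 10 counts in every library and 3054 at a log2 threshold of 2. The limma fits change test, unit and genes tested together. Higher in brain were 9724, 9676, 10348 and 3368 under library size, limma with 1 and with 0.1, and 10 counts. The other settings stayed within 1.5 times, and leaving out each library gave 3834 to 4998 and 3909 to 5258. Restricted genes numbered 833 in brain at 20 and 1 TPM, and 47 in liver and 518 in brain at 10 and 0.1 TPM. The interaction gave 35 by likelihood ratio, 21 by DESeq2 and 0 with 10 counts in every library. Transcript switches were 54 at 60% and 5 at 80%. Added after seeing the data were the call under both scalings (2472 in liver) and a rule of 100 times between sides (293 and 885).

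On library size and by limma with 1, sign turned for the median of brain endothelial and pericyte markers (-1.02, -1.21), the median of mitochondrial respiratory chain genes (-0.36, -0.68) and the median of cytosolic ribosomal proteins (-0.059, -0.38). It turned on library size for the median of erythroid genes (-0.13), by limma for the median of proteasome core genes (-0.16), and against SCN alone for the median of core clock genes (0.017). On library size, limma with 1 and with 0.1, the direction turned for *Aspa* (-0.14, -0.40, -0.41), *Cept1* (-0.42, -0.72, -0.74), *Cry1* (-0.32, -0.61, -0.66), *Fxyd1* (-1.01, -1.13, -1.13) and *Nsfl1c* (-0.59, -0.88, -0.89). *Ngef* (0.42) and *Kcne2* (0.85) turned against SCN alone. *Ehd3* turned on library size (-0.19). These causes were not tested.

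The tissues of a genotype share their hamsters, so the genotype term also serves as the block for that pairing. Without it 5192 genes were higher in liver and 5448 in brain. Leaving out a liver library leaves 1, assumed to vary like the others. The promoter motif description was not run. The brain libraries are shallower than the livers, so a 0 in brain allows more RNA.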

Other observations

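*LOC121136508*, a gene with a provisional symbol chosen after its values were seen, was at 2706 and 2460.2 TPM in liver and 77663, 76193, 100502 and 100944 TPM in brain, from 4316 and 4930 estimated counts in liver and 8776 to 57431 in brain.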
